A study of Homo sapiens with 12 samples.

Results

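The 10 genes described here encode chains of collagens that do not form the banded fibrils of type I collagen: COL4A1, COL4A2 and COL4A5 of type IV, COL6A1, COL6A2 and COL6A3 of type VI, and COL7A1, COL8A1, COL12A1 and COL18A1. They were picked by collagen type, with earlier results of these data known, out of 25702 genes in the count table, and each of the 10 was among the 9490 genes that passed the filter of at least 10 cpm (the count of a gene scaled to the effective total of its library) in at least 6 of the 12 libraries. RNA was sequenced from flasks of WI-38, a human lung fibroblast line that is a single cell strain, in 4 conditions with 3 flasks each. D1 flasks were left untreated and D1+ TGF-β flasks were given TGF-β, the cytokine that turns fibroblasts into contractile myofibroblasts, for 1 day, at passages 2 to 3. D20 and D20+ TGF-β flasks were kept for 20 days without or with TGF-β, at passages 5 to 6. One treated and one untreated day 1 flask seeded all the day 20 flasks, so p-values measure the spread between flasks only, and day, passage and reseeding cannot be told apart.

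Collagens are trimers of chains that wind around each other through long repeats in which glycine recurs at regular steps. Type IV chains join end to end into the sheet that underlies basement membranes, whereas type VI trimers stack into beaded filaments that surround cells and tie them to the wider matrix. Type VII forms the anchoring fibrils that hold basement membranes to the tissue beneath, type VIII is a short network-forming collagen of vessel walls, type XII coats the surface of banded fibrils, and type XVIII is a heparan sulfate collagen of basement membranes whose end fragment is endostatin. Fibroblasts and myofibroblasts of the lung secrete several of them into the interstitium.

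Libraries held between 8674488 and 18286197 counts, and a member had between 376 and 96151 counts in a library, so that the spread between flasks, not counting error, limited the comparisons. All 8 markers of the fibroblast list were expressed in every condition. Of the markers of other cells, CDH5 (endothelial), KRT5 and KRT14 (epithelial) and CD3E (T cell) were at 0 in all 12 libraries. One marker of each list passed the filter, TEK (endothelial) at 33.2 to 249 cpm, KRT18 (epithelial) at 20.1 to 40.2 cpm and CD68 (leukocyte) at 38.1 to 62.6 cpm, against 32.0 to 114 cpm for COL8A1. The 3 myofibroblast markers (ACTA2, TAGLN and CNN1) summed to 901 to 1468 cpm in D1 flasks and 2623 to 2860 with TGF-β, and to 1396 to 1484 in D20 flasks and 1417 to 1652 with TGF-β, and ACTA2 itself had a log2 fold change of 2.07 at day 1 and of 0.13 at day 20 (edgeR adjusted p = 2.28e-06 and 0.554), so that the ACTA2 level of the flasks treated for 20 days was not told apart from that of their untreated counterparts. Among replicates, 2 libraries stood apart. In D1 replicate 2, 507 genes lay more than 0.5 on the log2 scale beyond both other flasks of the condition, and in D20+ TGF-β replicate 3, 493 genes did, against 1 to 54 genes in any other library. COL4A1, COL4A2, COL4A5 and COL7A1 were among these genes in the first, where they were high, and COL4A1, COL4A2, COL4A5 and COL8A1 in the second, where they were low. The fits were therefore repeated without both, a choice made after the values were seen, and these values are given where they change a call or move a value.

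After 1 day of TGF-β, 3 of the 10 collagen genes were called at an adjusted p under 0.01 by edgeR's quasi-likelihood test, the anchoring fibril gene COL7A1 as higher and COL4A5 and COL18A1 as lower. Of all genes tested, 13.4% were called in this comparison, 6.89% higher and 6.5% lower. After 20 days, 3 of 10 were called against D20, COL8A1 as higher and again COL4A5 and COL18A1 as lower, beside 27.5% of all genes, 12.8% higher and 14.7% lower. From day 1 to day 20 without TGF-β, COL4A5 and COL12A1 were higher and no member was lower, beside 36.4% of all genes, 18.9% higher and 17.6% lower. From day 1 to day 20 with TGF-β, COL4A5 and COL12A1 were higher and COL7A1 was lower, beside 34.8% of all genes, 17.2% higher and 17.7% lower. The median log2 fold change of the 10 genes was 0.20, 0.15, 0.29 and 0.06 in these 4 comparisons in this order, and that of all genes tested was −0.02, 0.01, 0.01 and 0.01.

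With both libraries that stood apart left out, 7 of the 10 genes were called at day 1, 7 at day 20, 7 from D1 to D20 and 4 between the TGF-β conditions, beside 27.8%, 36.1%, 48.9% and 47.3% of all genes. The genes added were COL4A1, COL4A2, COL6A3 and COL8A1 at day 1, and COL4A1, COL4A2, COL7A1 and COL12A1 at day 20, all higher with TGF-β. COL4A1, COL4A2, COL6A3, COL7A1 and COL8A1 were added as higher at D20 than at D1, and COL8A1 as higher at D20+ TGF-β than at D1+ TGF-β. In bulk RNA, a smaller share of cells that express a gene cannot be told apart from less RNA of it per cell.

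**Figure D1:**
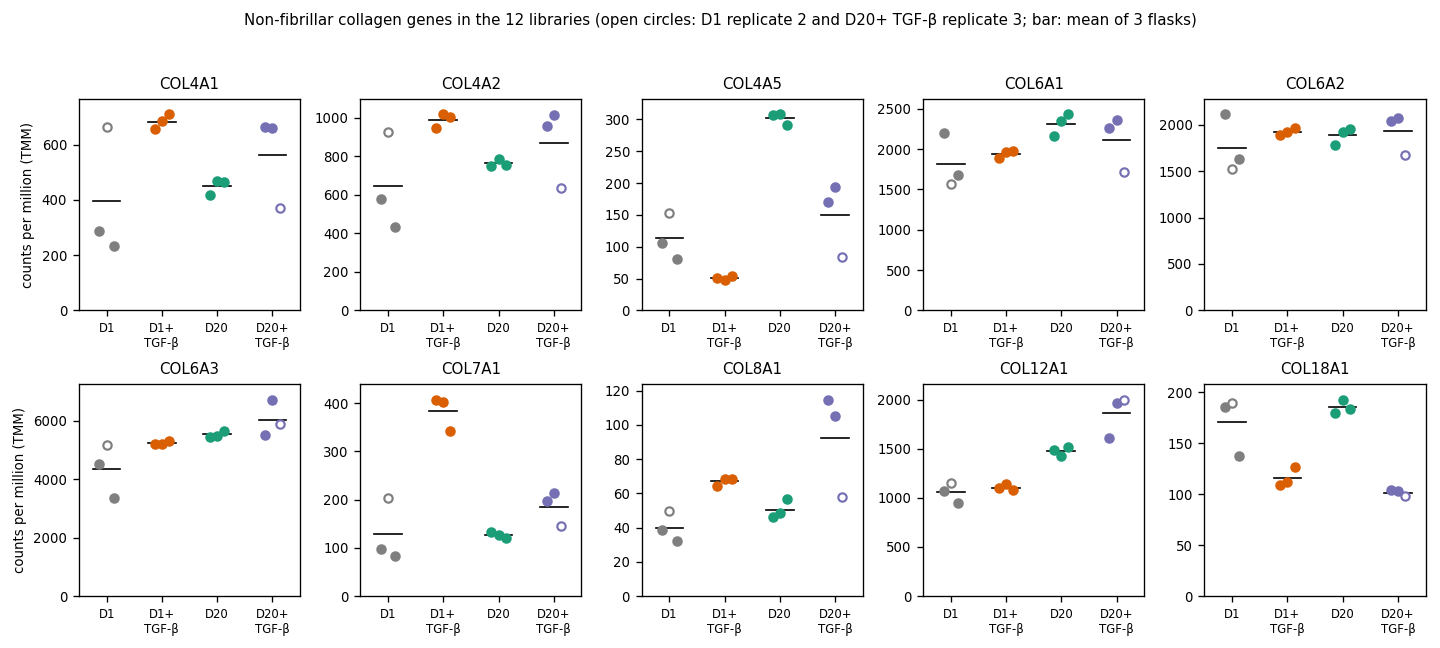
Normalised level (cpm with TMM factors, linear axis from 0) of each collagen gene in each of the 12 libraries, by condition; points are flasks, bars are means of 3 flasks, and open circles are D1 replicate 2 and D20+ TGF-β replicate 3. COL4A5 lies between 48.5 and 54.6 in the D1+ TGF-β flasks and between 290.8 and 307.6 in the D20 flasks, while COL6A2 stays between 1524 and 2110 in all 12.

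COL4A1 and COL4A2 encode the chains of the common type IV trimer, in which α1 and α2 chains combine. Their genes lie head to head on chromosome 13 (GRCh37), COL4A1 (Entrez 1282) from 110801310 to 110959504 on the minus strand and COL4A2 (Entrez 1284) from 110958159 to 111165556 on the plus strand, and their annotated ends overlap by 1346 bases. The RefSeq starts of both genes are separated by 126 bases, from which both are transcribed outward. This stretch is shown because the levels of both genes moved together over the libraries. It matched GRCh37 at one place on the chromosome, chr13:110959505-110959630 (plus strand), and in it capitals mark a CCAAT box and a GC box (GGGCGG).
COL4A1 to COL4A2: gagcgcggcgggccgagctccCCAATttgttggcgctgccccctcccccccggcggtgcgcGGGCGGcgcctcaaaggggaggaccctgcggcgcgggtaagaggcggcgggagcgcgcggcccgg

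Across the 12 libraries, the log2 levels of COL4A1 and COL4A2 had a Pearson correlation of 0.986, and each was the gene most like the other among 9489 genes. With 10 libraries the correlation was 0.987 and COL4A2 ranked 3 for COL4A1. COL4A1 was at 286.5, 664 and 234 cpm in D1 replicates 1, 2 and 3, and at 655, 685 and 709 cpm in the D1+ TGF-β flasks. Replicate 2 of D1 reached the level of the treated flasks, and the other untreated flasks lay well below them. The log2 fold change was 0.79 (SE 0.31, edgeR adjusted p = 0.0770) with all libraries and 1.40 (SE 0.19, adjusted p = 0.000143) without D1 replicate 2. At day 20, COL4A1 was at 419, 468 and 464 cpm without TGF-β and at 663, 659 and 369 cpm with it. Replicate 3 of D20+ TGF-β was the lowest of these 6 flasks, and the 2 others were above all D20 flasks. COL4A1 had a log2 fold change of 0.32 at day 20 (SE 0.30, adjusted p = 0.420), or 0.57 (SE 0.08, adjusted p = 4.88e-06) without both libraries.

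COL4A2 followed with 578, 929 and 432 cpm in untreated and 949, 1018 and 1005 cpm in treated flasks of day 1, and with 752, 785 and 755 cpm in untreated and 956, 1014 and 634 cpm in treated flasks of day 20. The treated flasks of day 1 were above all untreated ones, while those of day 20 overlapped the untreated ones through replicate 3. Its log2 fold change was 0.62 at day 1 (SE 0.22, edgeR adjusted p = 0.0561) and 0.18 at day 20 (SE 0.22, adjusted p = 0.532). Without both libraries these were 0.98 and 0.38 (adjusted p = 8.09e-08 and 0.00122). Between D1 and D20 the log2 fold changes of COL4A1 and COL4A2 were 0.19 and 0.24 (adjusted p = 0.629 and 0.377), and 0.77 and 0.58 without both libraries (adjusted p = 1.18e-07 and 1.64e-05). Under TGF-β, no change with time was called for either gene in any of the fits, with log2 fold changes of −0.28 and −0.19 (adjusted p = 0.469 and 0.487). The counter and its use of strand are not given in the sources used here, although the library kit preserved strand, so reads of the overlap of both genes, and of COL4A2 with COL4A2-AS1 and COL4A2-AS2, are not known to be separated.

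COL4A5 encodes the α5 chain of type IV collagen, which joins α6 chains or the α3 and α4 chains in more restricted basement membranes. The gene (Entrez 1287) spans positions 107683068 to 107940775 of the plus strand of chromosome X, with COL4A6 in the opposite direction just upstream. COL4A6 has 2 RefSeq starts, the nearer of which is 379 bases from that of COL4A5. The 250 bases before the COL4A5 start are shown for comparison with the shared start region of COL4A1 and COL4A2 (GRCh37, chrX:107682818-107683067, plus strand). Capitals mark CCAAT boxes and a SMAD box (CAGAC), each on either strand.
COL4A5: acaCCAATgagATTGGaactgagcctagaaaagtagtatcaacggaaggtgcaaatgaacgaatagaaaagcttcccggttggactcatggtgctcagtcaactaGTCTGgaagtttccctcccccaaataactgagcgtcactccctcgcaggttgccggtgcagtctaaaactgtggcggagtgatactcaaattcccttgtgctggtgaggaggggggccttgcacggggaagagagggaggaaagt

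With 51.2% G and C, this stretch held 0 GC boxes, whereas the stretch between COL4A1 and COL4A2 had 80.2% G and C. COL4A5 had log2 fold changes with TGF-β opposite in sign to those of COL4A1, which edgeR did not call with all 12 libraries. It was at 106, 152 and 81.2 cpm in the D1 flasks and at 50.7, 48.5 and 54.6 cpm in the D1+ TGF-β flasks, so that every treated flask was below every untreated one. This was a log2 fold change of −1.15 (SE 0.26, edgeR adjusted p = 0.00592). In the D20 flasks it was at 307, 308 and 290.8 cpm, the highest levels of the gene, and at 170, 194 and 83.7 cpm in the D20+ TGF-β flasks. The groups did not overlap, and D20+ TGF-β replicate 3 was below the other treated flasks. At day 20 the log2 fold change was −1.02 (SE 0.25, adjusted p = 0.00508). Without both libraries that stood apart it was −0.86 at day 1 and −0.72 at day 20, with adjusted p = 1.19e-06 and 1.90e-06.

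The day 1 call of COL4A5 was lost in 8 of 23 alternatives, with adjusted p up to 0.0330. They were limma-voom on 12 libraries and the fits without D1 replicates 1 or 2, D1+ TGF-β replicates 1, 2 or 3, or D20 replicates 1 or 2. The day 20 call was lost in 5, with adjusted p up to 0.0173, namely with only the 6 libraries compared and without any of the 3 D20 replicates or D20+ TGF-β replicate 1. The direction stayed in all 23. The rise of COL4A5 with time was called in all 23 alternatives, both without TGF-β (log2 fold change 1.41, SE 0.25, edgeR adjusted p = 0.000398) and with it (1.54, SE 0.26, adjusted p = 0.000312), and was 1.68 and 1.82 without both libraries that stood apart. The 5 endothelial markers also had their highest sum at D20, 223 to 251 cpm against 46.3 to 80.2 cpm in D1 flasks, 35.0 to 40.8 cpm with TGF-β for 1 day and 78.1 to 152 cpm with TGF-β for 20 days. TEK made up nearly all of the sum, with CDH5 at 0, PECAM1 at up to 0.308 cpm, KDR at up to 0.915 cpm and VWF at 0.397 to 1.55 cpm, and the part of these markers in the result was not tested.

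COL4A6, the neighbour of COL4A5, was at 37.03, 42.2 and 24.7 cpm in untreated and 13.8, 13.6 and 13.5 cpm in treated flasks of day 1, and at 132, 138 and 123 cpm in untreated and 36.8, 38.4 and 13.1 cpm in treated flasks of day 20. Like COL4A5, it was lower in every treated flask than in every untreated flask of the same day and highest at D20. Its log2 fold changes were −1.35 at day 1 and −2.14 at day 20 (edgeR adjusted p = 0.00565 and 3.97e-05), and −1.17 and −1.79 without both libraries that stood apart. The day 1 call of COL4A6 was lost without D1 replicates 1 or 2 or any D1+ TGF-β replicate (adjusted p up to 0.0312). The correlation of COL4A5 with COL4A6 over the 12 libraries was 0.949, at rank 100 of 9489 genes, or 0.962 at rank 236 over 10 libraries, and that with COL4A1 was −0.11. COL4A3 and COL4A4, which encode the remaining chains that can join α5, did not exceed 0.776 cpm in any library.

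Per length, the proportion of the type IV chains varied with treatment and day. The level of COL4A5 per kilobase of exon was 0.455, 0.283 and 0.428 of that of COL4A1 in D1 replicates 1 to 3, and 0.0956, 0.0875 and 0.0951 of it in the D1+ TGF-β flasks. At day 20 the ratio was 0.906, 0.811 and 0.774 without TGF-β and 0.316, 0.364 and 0.280 with it. Treated and untreated flasks did not overlap on either day, in the libraries that stood apart as in the others, while the D1 and the D20+ TGF-β flasks overlapped. The ratio of COL4A1 to COL4A2 covered a narrower span, from 0.652 to 0.940 over the 12 libraries. With the longest annotated transcript as the length, the ratio of COL4A5 to COL4A1 had a mean of 0.315 without and 0.0752 with TGF-β at day 1, and of 0.673 without and 0.259 with it at day 20, which scales every library by the same factor. These ratios are a description and were not tested.

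**Figure D2:**
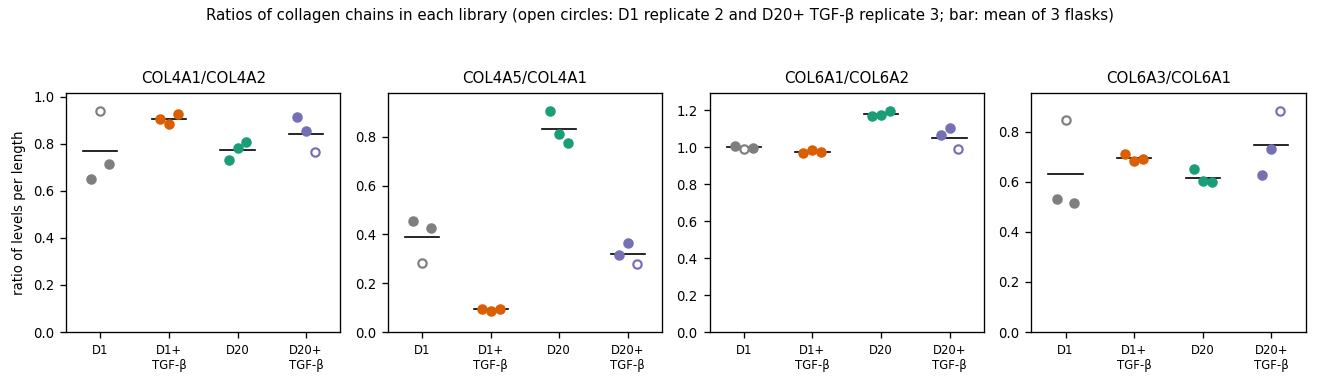
Ratio of the levels per length (cpm per kilobase of the union of annotated exons) of pairs of collagen chains in each library, by condition; bars are means of 3 flasks and open circles are the 2 libraries that stood apart. The COL4A5 to COL4A1 ratio has means of 0.389 without and 0.0927 with TGF-β at day 1, and of 0.830 without and 0.320 with it at day 20, and the COL6A1 to COL6A2 ratio lies between 1.17 and 1.20 at D20 and reaches 1.10 at most elsewhere.

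Type VI collagen made up most of the expression of the 10 genes. COL6A1, COL6A2 and COL6A3 together took between 71.1 and 78.9% of their counts in a library, and the 10 genes took 1.06 ± 0.165% of all counts without and 1.21 ± 0.0167% with TGF-β at day 1, and 1.26 ± 0.0174% without and 1.38 ± 0.126% with it at day 20 (SD, n = 3). COL6A1 (Entrez 1291; chromosome 21, 47401684 to 47424964, plus strand) and COL6A2 (Entrez 1292; chromosome 21, 47518026 to 47552762, plus strand) encode the short α1 and α2 chains. COL6A3 (Entrez 1293; chromosome 2, 238232646 to 238322971, minus strand) encodes the long α3 chain, whose end fragment is endotrophin.

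COL6A1 was at 2201, 1569 and 1683 cpm in untreated and 1893, 1963 and 1980 cpm in treated flasks of day 1, and at 2161, 2343 and 2430.1 cpm in untreated and 2264, 2365 and 1721 cpm in treated flasks of day 20. In the same order, COL6A2 was at 2110.2, 1524 and 1625 cpm, at 1884, 1927 and 1964 cpm, at 1786, 1921 and 1958 cpm, and at 2044, 2070.0 and 1678 cpm. For both genes the flasks overlapped in all 4 comparisons of conditions, and D20+ TGF-β replicate 3 was the lowest treated flask of day 20. Neither gene was called for TGF-β at day 1, where the log2 fold changes were 0.10 and 0.13 (SE 0.13 and 0.12, edgeR adjusted p = 0.628 and 0.425), nor at day 20, where they were −0.13 and 0.03 (SE 0.13 and 0.12, adjusted p = 0.466 and 0.845). Leaving out both libraries that stood apart called neither gene in any of these comparisons, with log2 fold changes from 0.01 to 0.14. COL6A1 was higher at D20 than at D1 by 0.35 on the log2 scale (SE 0.13, adjusted p = 0.0407), which missed the threshold.

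The ratio of both short chains was set apart at D20, a description that was not tested. Per length, COL6A1 was 1.00, 0.992 and 0.998 of COL6A2 in the D1 flasks and 0.968, 0.982 and 0.971 of it after 1 day of TGF-β, against 1.17, 1.18 and 1.20 of it in the D20 flasks and 1.07, 1.10 and 0.988 of it after 20 days of TGF-β. All 3 D20 flasks were above all 9 others. The D1+ TGF-β flasks were below all D1 flasks, with means of 0.974 ± 0.00727 and 0.998 ± 0.00640 (SD, n = 3). On this ratio D1 replicate 2 did not stand apart. With the longest annotated transcript as the length, the mean ratio was 0.849 at D1 and 0.828 at D1+ TGF-β. It was then 1.00 at D20 and 0.895 at D20+ TGF-β. The change of length scales every library by the same factor, so which chain is the higher depends on the length used. The correlation of COL6A1 with COL6A2 over the 12 libraries was 0.845, at ranks 16 and 3 of 9489 genes, and it was 0.694 over 10 libraries, at ranks 1274 and 109.

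COL6A3 was at 4528, 5151 and 3354 cpm at D1 and at 5217, 5196 and 5299 cpm at D1+ TGF-β. The treated flasks were above all untreated ones, but D1 replicate 2 was close below them. COL6A3 had a log2 fold change of 0.27 (SE 0.13, edgeR adjusted p = 0.141), and 0.42 without both libraries that stood apart (SE 0.10, adjusted p = 0.00246). It was at 5457, 5489 and 5635 cpm at D20 and at 5496, 6704 and 5898 cpm at D20+ TGF-β, where the flasks overlapped and the log2 fold change was 0.13 (SE 0.13, adjusted p = 0.454). From D1 to D20 COL6A3 was higher in 3 of 3 flasks, with a log2 fold change of 0.35 (SE 0.13, adjusted p = 0.0351), and it was called at 0.47 without both libraries (adjusted p = 0.000474). COL6A5 and COL6A6, which encode alternatives to the α3 chain, did not exceed 0.194 and 0.411 cpm.

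COL7A1 (Entrez 1294; chromosome 3, 48601506 to 48632762, minus strand; 118 exons in its longest transcript) encodes the anchoring fibril collagen. Among the 10 genes it had the largest rise after 1 day of TGF-β. It was at 98.5, 203 and 82.7 cpm in D1 replicates 1, 2 and 3 and at 406, 403 and 343 cpm in the D1+ TGF-β flasks. Every treated flask was above every untreated one, with D1 replicate 2 the highest untreated flask. The log2 fold change was 1.58 (SE 0.25, edgeR adjusted p = 0.000544), a change of 2.99-fold, and it was called in all 23 alternatives, at 2.09 (SE 0.09, adjusted p = 4.33e-12) without both libraries that stood apart.

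The 250 bases before its RefSeq start are shown as those of the gene with this rise (GRCh37, chr3:48632763-48633012, minus strand). Capitals mark a TATA box (TATAAA), a SMAD box and GC boxes, on either strand.
COL7A1: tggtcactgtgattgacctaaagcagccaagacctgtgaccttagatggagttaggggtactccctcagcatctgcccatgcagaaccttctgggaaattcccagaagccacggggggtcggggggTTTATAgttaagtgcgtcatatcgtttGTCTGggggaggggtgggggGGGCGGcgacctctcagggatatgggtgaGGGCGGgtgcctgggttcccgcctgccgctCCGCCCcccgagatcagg

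At day 20, COL7A1 was at 133, 126 and 121 cpm without TGF-β and at 197, 213 and 145 cpm with it. All treated flasks were again above all untreated ones, and replicate 3 was the lowest of them. The log2 fold change of 0.55 (SE 0.25, edgeR adjusted p = 0.0974) was not called, whereas that without both libraries that stood apart, 0.71 (SE 0.08, adjusted p = 1.23e-06), was. Between the TGF-β conditions COL7A1 was lower at day 20 in 3 of 3 flasks, by a log2 fold change of −1.05 (SE 0.25, adjusted p = 0.00344), or −0.92 (adjusted p = 3.55e-08) without both libraries. This call was lost in 4 of 23 alternatives, without D1+ TGF-β replicates 1 or 2 or D20+ TGF-β replicates 1 or 3, with adjusted p up to 0.0141. Between D1 and D20 it had a log2 fold change of −0.02 (adjusted p = 0.954) with all libraries and of 0.47 (adjusted p = 0.000185) without both that stood apart, and the sign turned when D1 replicate 2 alone was left out (0.47, adjusted p = 0.0108).

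COL8A1 (Entrez 1295; chromosome 3, 99357319 to 99518070, plus strand) encodes the α1 chain of type VIII collagen. It was at 38.3, 49.6 and 32.0 cpm at D1 and at 64.4, 68.6 and 68.3 cpm at D1+ TGF-β, with all treated flasks above the untreated ones. Its log2 fold change of 0.74 (SE 0.21, edgeR adjusted p = 0.0193) missed the threshold, passed it in 7 of 23 alternatives, and was 0.94 (adjusted p = 3.53e-07) without both libraries that stood apart. At day 20, COL8A1 was at 46.2, 48.6 and 56.7 cpm without TGF-β and at 114, 105 and 57.9 cpm with it. Replicate 3 of D20+ TGF-β was just above the highest untreated flask and the 2 others were far above it. Here the log2 fold change of 0.87 (SE 0.20, adjusted p = 0.00386) was called, and 1.13 (SE 0.09) without both libraries. The day 20 call was lost in 5 of 23 alternatives, with only the 6 libraries compared and without D20 replicates 1 or 2 or D20+ TGF-β replicates 1 or 2, with adjusted p up to 0.0218. COL8A2, which encodes the α2 chain of the same collagen, was between 1.39 and 3.35 cpm and was not tested.

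COL12A1 (Entrez 1303; chromosome 6, 75794042 to 75915983, minus strand) encodes a collagen of fibril surfaces. It was at 1071, 1157 and 954 cpm at D1 and at 1099, 1139 and 1076 cpm at D1+ TGF-β, and these flasks overlapped. At D20 it was at 1493, 1424 and 1515 cpm and at D20+ TGF-β at 1616, 1971 and 1998 cpm, so that day 20 was above day 1 and, at day 20, treated was above untreated in every flask. The log2 fold change with time was 0.48 (SE 0.09, edgeR adjusted p = 0.000852) without TGF-β and 0.75 (SE 0.09, adjusted p = 3.36e-05) with it, and both were called in all 23 alternatives. With TGF-β it was 0.06 at day 1 (adjusted p = 0.693) and 0.33 at day 20 (SE 0.09, adjusted p = 0.0115). The latter missed the threshold and was called in 9 of 23 alternatives, among them the fit without both libraries that stood apart (0.30, adjusted p = 0.00391).

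COL18A1 (Entrez 80781; chromosome 21, 46825080 to 46933634, plus strand) encodes the collagen from which endostatin, an inhibitor of vessel growth, is cut. It was at 186, 189 and 138 cpm at D1 and at 109, 111 and 126 cpm at D1+ TGF-β. At day 20 it was at 180, 192 and 183 cpm without TGF-β and at 104, 103 and 97.8 cpm with it. On both days every treated flask was below every untreated flask. The log2 fold change was −0.56 at day 1 (SE 0.11, edgeR adjusted p = 0.00165) and −0.87 at day 20 (SE 0.11, adjusted p = 2.66e-05). The day 20 call held in all 23 alternatives, and the day 1 call was lost in 3 of them, with only the 6 libraries compared and without the first or second D1+ TGF-β replicate, where the adjusted p reached 0.0134. With time it was not called, at 0.11 without TGF-β and −0.19 with it (adjusted p = 0.374 and 0.157). Neither library that stood apart did so for COL18A1 by more than 0.5 on the log2 scale. The gene has RefSeq starts at 2 places, which gene counts do not separate, and COL18A1-AS1, COL18A1-AS2 and SLC19A1 overlap it on the opposite strand.

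**Figure D3:**
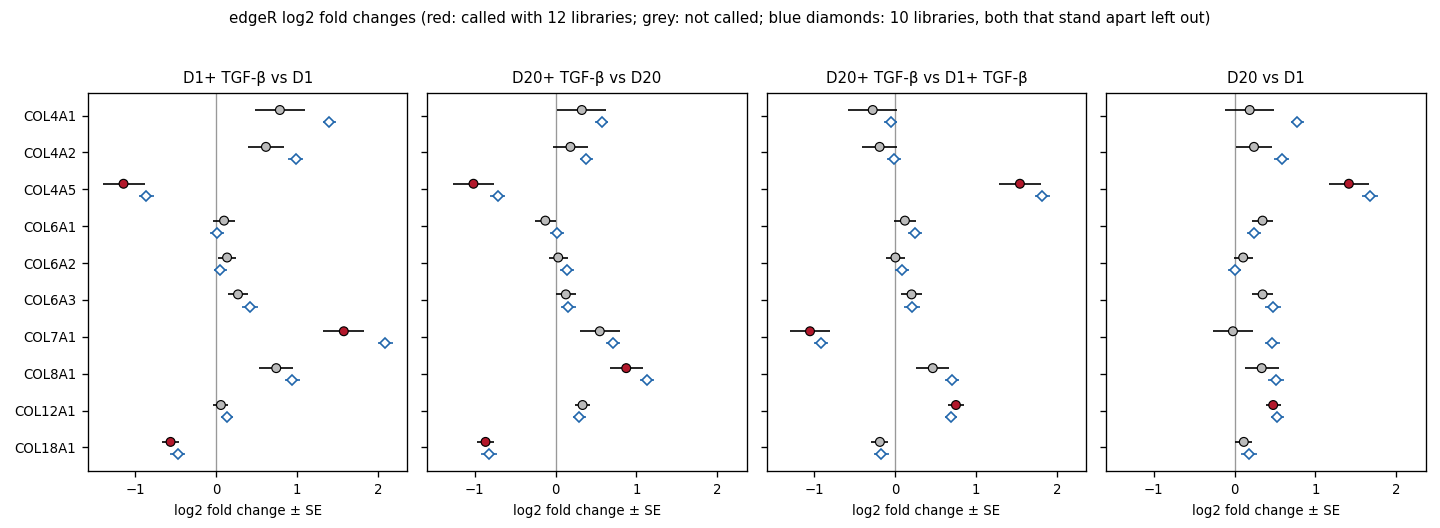
Log2 fold change ± SE of the 10 collagen genes in 4 comparisons, with 12 libraries (circles, red where the edgeR adjusted p is under 0.01 and grey where it is not) and with the 2 libraries that stood apart left out (blue diamonds). COL7A1 is at 1.58 and COL4A5 at −1.15 after 1 day of TGF-β, while COL6A1 and COL6A2 lie within 0.35 of 0 in all 4 comparisons.

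Whether the response to TGF-β itself differed between day 20 and day 1 was tested as the difference of both log2 fold changes. With edgeR 0 of the 10 genes were called, beside 10.4% of all genes, and 1, COL7A1, had an unadjusted p under 0.05. DESeq2, limma-voom on the 12 libraries and limma on the deposited log2 values also called 0. COL7A1 had a difference of −1.03 (SE 0.35, edgeR adjusted p = 0.0521). With both libraries that stood apart left out, 3 genes were called beside 23.9% of all genes, with differences of −1.38 for COL7A1, −0.83 for COL4A1 and −0.60 for COL4A2 (SE 0.12, 0.11 and 0.12, adjusted p = 9.07e-08, 1.07e-05 and 0.000937). Without D1 replicate 2 alone, a setting for which no share of all genes is given, 2 were called, COL7A1 at −1.53 and COL4A1 at −1.06 (adjusted p = 5.64e-05 and 0.00614). For COL4A5, COL8A1 and COL18A1, which were called at day 20, the differences were 0.13, 0.13 and −0.30 (SE 0.36, 0.29 and 0.15, adjusted p = 0.834, 0.792 and 0.166).

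Levels of different genes were compared per kilobase of exon. The 3 type VI genes were the highest of the 10 in each condition, between 202 and 418 cpm per kilobase, and COL12A1 was next, at 56.2 and 78.3 in untreated flasks and 58.6 and 98.7 in treated flasks of day 1 and day 20. COL4A2 and COL4A1 followed, at 33.5 and 26.9 without and 51.4 and 46.6 with TGF-β at day 1, and at 39.7 and 30.7 without and 45.0 and 38.5 with it at day 20. The ranges of COL4A1 and COL4A2 over the flasks overlapped per length at D1 and at D20+ TGF-β. Within each of the 12 libraries COL4A1 was below COL4A2, at a ratio between 0.652 and 0.940. COL4A5 had the lowest level of the 10 at D1+ TGF-β, 4.32 cpm per kilobase, against 9.52 at D1. At day 20 it was at 25.4 without TGF-β, above COL18A1, COL7A1 and COL8A1, and at 12.6 with it. COL7A1 was above COL18A1 at D1+ TGF-β, at 34.5 against 13.7, and below it at D20, at 11.4 against 21.9. With the longest transcript as the length, the type VI genes were still the highest, while COL4A2 was above COL12A1 at D1 and D1+ TGF-β, at 100.3 against 90.5 and 154 against 94.2, and COL4A1 was above COL12A1 at D1+ TGF-β, at 104 against 94.2. COL18A1 was then the lowest of the 10 at D20+ TGF-β, at 15.4.

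**Figure D4:**
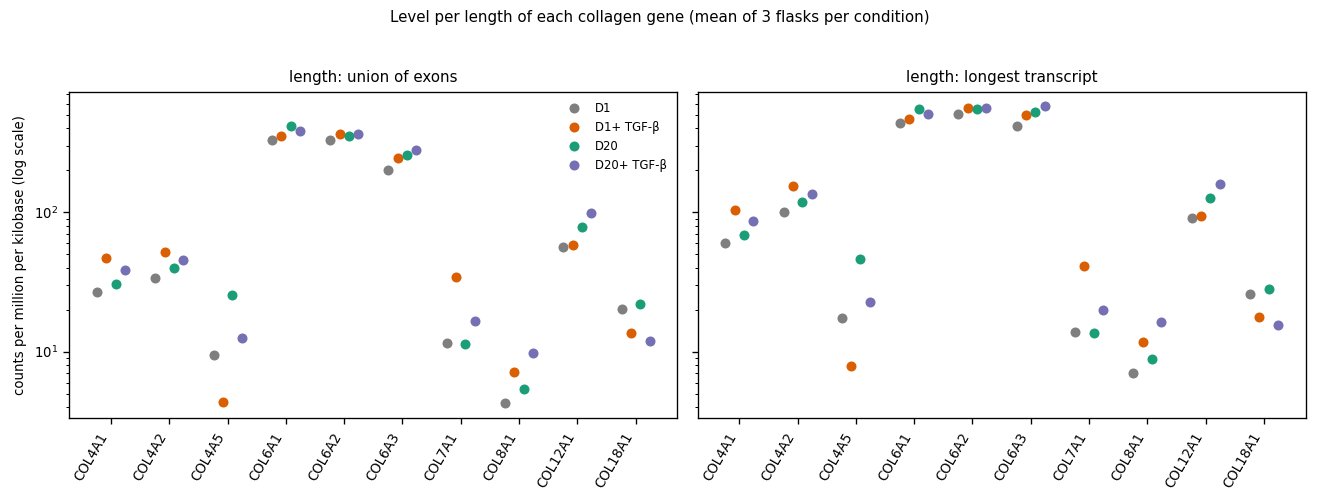
Mean level per length (cpm per kilobase, log axis) of each collagen gene in the 4 conditions, with the union of annotated exons (left) or the longest annotated transcript (right) as the length. The type VI genes are the highest on both scales. On the left, COL4A5 is at 9.52 without and 4.32 with TGF-β at day 1, and at 25.4 without and 12.6 with it at day 20.

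RefSeq start windows of 300 bases (250 before the start and 50 after it, GRCh38.p14) were given for 8 of the 10 genes, as 9 windows, and searched on both strands. A GC box (GGGCGG) was found in 7 of the 9, against 45.0% of 35116 windows of all genes, and the 2 without it belonged to COL4A5 and COL6A3. A SMAD box (CAGAC) was found in 4, those of COL4A5, COL6A3, COL7A1 and COL12A1, against 45.3% of all windows. CCAAT was found in 3, those of COL4A1, COL4A2 and COL4A5 (34.6% of all), TATAAA in 3, those of COL6A2, COL7A1 and COL18A1 (11.5% of all), and the AP-1 site TGANTCA in 0 (7.71% of all). The windows of COL4A1 and COL4A2 overlap and share bases, so their matches are not independent.

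By the correlation of log2 cpm over the 12 libraries, the gene most like COL4A5 was FAM20C (0.992), and that most like COL6A3 was IGF1R (0.980). For COL7A1 it was GFPT1 (0.973), for COL8A1 NRP2 (0.966), for COL12A1 KIAA0430 (0.976) and for COL18A1 DMPK (0.965). COL6A1 was nearest to PDE4DIP (0.943) and COL6A2 to ALKBH5 (0.897). The 12 libraries share 4 conditions and the 2 that stood apart, and these values are a description.

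Other collagens and the genes that act with them gave the setting of these changes. Of 23 other non-fibrillar collagen genes, 5 passed the filter, COL4A6, COL13A1, COL14A1, COL15A1 and COL16A1. COL16A1, a fibril-associated collagen, was higher with TGF-β at day 1 and day 20, by 0.52 and 0.94 (edgeR adjusted p = 0.00900 and 6.83e-05). Its day 1 call was lost in 13 of 23 alternatives, among them those without 10 of the 12 libraries in turn, the exceptions being D1 replicate 1 and D20+ TGF-β replicate 3 (adjusted p up to 0.0400). COL15A1, the closest relative of COL18A1, was at 8.83, 8.27 and 6.73 cpm at D20 and at 34.1, 42.1 and 43.4 cpm at D20+ TGF-β, the opposite direction to COL18A1. COL15A1 reached 10 cpm in 7 libraries, among them the 3 D20+ TGF-β flasks. Without these it would not have passed the filter, so that no test of it is given, although it is counted among the partner genes tested. Of 7 fibrillar collagen genes tested out of 11, 4 were higher with TGF-β at day 1 and 0 lower, and 3 were higher and 1 lower at day 20. Over all genes tested, 6.89% were higher and 6.5% lower at day 1, and 12.8% higher and 14.7% lower at day 20. These shares apply to the counts with all 12 libraries in each list that follows. For the counts without both libraries that stood apart, 27.8% of all genes were called at day 1 and 36.1% at day 20. COL5A1 and COL1A1 had log2 fold changes of 1.87 and 1.09 at day 1 (adjusted p = 4.69e-07 and 2.50e-05).

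Of 13 tested partners of the basement membrane out of 21 listed, 1 was higher and 2 were lower with TGF-β at day 1, and 1 was higher and 6 were lower at day 20. Without both libraries that stood apart these were 1 and 4 at day 1, and 2 and 7 at day 20. The day 1 call of NID2 was lost without any D1+ TGF-β replicate. Among the 6 lower at day 20, NID2, which links laminin to type IV collagen, had a log2 fold change of −2.41, and the laminin chains LAMA4 and LAMA5 had −1.69 and −1.66 (edgeR adjusted p = 1.65e-05, 5.66e-07 and 4.50e-06). The one that was higher, named after its values were seen, was the laminin chain LAMA1. From D1 to D20, where 18.9% of all genes were higher and 17.6% lower, 8 of the 13 were higher and 1 lower, with LAMA5, LAMA2 and LAMB1 at log2 fold changes of 1.28, 1.25 and 1.12. Of 18 tested genes of collagen folding, modification and cross-linking out of 20, 8 were higher and 0 lower at day 1, and 6 were higher and 2 lower at day 20, or 11 and 0, and 8 and 2, without both libraries. P3H2, which hydroxylates prolines of type IV collagen, was among the latter, at −2.21 (adjusted p = 6.38e-07), while P4HA2, a prolyl 4-hydroxylase subunit, was at 1.08 at day 1 (adjusted p = 3.16e-07). Of 9 tested collagen receptors out of 10, 2 were higher and 0 lower at day 1, and 1 was higher and 1 lower at day 20, against 5 and 1, and 5 and 2, without both libraries. Without D1 replicate 2 alone, a setting for which no share of all genes is given, 5 receptors were higher at day 1 and 3 at day 20. The integrin chain ITGA11 was called on both days, at log2 fold changes of 1.05 and 1.08 (adjusted p = 7.09e-05 and 1.70e-05). Markers of proliferating cells summed to 677 to 1022 cpm without and 702 to 783 with TGF-β at day 1, and to 107 to 133 without and 246 to 415 with it at day 20, and their part in these results was not tested.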

How the data were processed

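RNA of 12 WI-38 flasks was sequenced on 4 lanes per library. Per the study's methods the authors trimmed reads with Trimmomatic, mapped them to hg19 with Rsubread and deposited raw counts per gene, with the 48 lanes as columns, and log2 values of 9412 filtered genes. The counter, annotation and strand setting are not given in the sources used here. Lanes were summed per library. A gene was kept when 6 or more of the 12 libraries reached 10 cpm (9490 of 20434 with a count), TMM factors were computed, and edgeR 4.0.16 (quasi-likelihood F-test, R 4.3.3) was fitted with 4 condition means, with Benjamini-Hochberg adjustment over all genes and a threshold of 0.01 after the study's. Alternatives used DESeq2 1.42.0, limma 3.58.1, other factors and filters, and left out each library. On simulated counts with 200 of 9490 genes changed, 97% of changes of 1 on the log2 scale were recovered for TGF-β at day 20 (3 false calls), and 89% for the difference of the responses (5 false calls). The simulation held no library that stood apart and covered genes drawn from all tested, so these rates are not those of the 10 genes. Lengths and positions came from GENCODE v44lift37 (GRCh37), start windows from RefSeq (GRCh38.p14). The 10 genes and the partner lists were chosen with earlier results of these data known. Beside the 10 genes, the text names, per list and comparison, called genes among the 3 with the largest log2 fold change, the nearest gene by correlation, and ACTA2. Same-numbered flasks did not vary together (correlations of their deviations between −0.22 and 0.32), so numbers were not used as a pairing.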

Additional observations from a re-analysis of the deposited data

Results flagged for a closer look

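None of the 10 collagen genes differed in its TGF-β response between day 20 and day 1 at an edgeR adjusted p under 0.01, beside 10.4% of all genes. By the same test of the difference itself, 12 genes of the partner lists were called, COL15A1 among them. In these lists 5, 7, 13, 18 and 9 genes were tested, in the order in which the lists were described. Of the 12 called genes, the 9 given here are those with the largest differences, up to 3 in each list. The response at day 20 minus that at day 1 was 1.04 on the log2 scale for LAMA1 (SE 0.15, adjusted p = 0.000431). For COL15A1 it was 2.27, a description only, because the gene would not have passed the filter without the D20+ TGF-β flasks. Between D20 and D20+ TGF-β, LAMA1, a laminin chain, went from 79.4, 88.1 and 87.0 cpm to 187, 198 and 165 cpm, while at day 1 the flasks with and without TGF-β overlapped. The difference was −1.34 for LAMA4 (SE 0.18, adjusted p = 0.000297), −1.002 for the fibrillar collagen COL5A1 (SE 0.18, adjusted p = 0.00189) and −1.01 for SPARC, a collagen-binding matricellular protein (SE 0.10, adjusted p = 3.35e-05). Among enzymes that modify collagen it was −1.70 for P3H2 (SE 0.25, adjusted p = 0.000430), −0.86 for PLOD2 (SE 0.19, adjusted p = 0.00554) and −0.82 for P4HA1 (SE 0.15, adjusted p = 0.00227). For ITGB1, the β1 integrin chain of the collagen receptors, it was −0.57 (SE 0.11, adjusted p = 0.00243). Without both libraries that stood apart 26 partner genes were called in place of 12, and the collagen genes COL4A1, COL4A2 and COL7A1 were called, beside 23.9% of all genes. Each of the partner genes given here with a test kept its sign and its call, with 1.15 for LAMA1, −1.10 for LAMA4 and −1.90 for P3H2. The call of PLOD2 was lost without any D1+ TGF-β or D20 replicate and without D1 replicates 1 or 3 (adjusted p up to 0.0187), and that of ITGB1 without D1+ TGF-β replicate 2 or D20 replicate 3 (up to 0.0111).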

How the results depend on the processing

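Over 22 other settings and the added one without both libraries that stood apart, 1028 of 1140 values of the 10 genes kept their direction and their side of the threshold, 55 passed it newly, 25 no longer passed it and 32 changed sign, 0 of them where the value was called with all libraries. The comparisons follow in the order TGF-β at day 1, TGF-β at day 20, time with TGF-β, time without it, and the difference of the responses. With the 48 lanes as samples, 7, 5, 5, 5 and 5 of the 10 genes were called. Lanes are repeats of the same 12 libraries and not further flasks, so p-values of the lane fit do not measure the spread between flasks. Without both libraries 7, 7, 4, 7 and 3 were called, beside 27.8%, 36.1%, 47.3%, 48.9% and 23.9% of all genes. With all 12 libraries these shares were 13.4%, 27.5%, 34.8%, 36.4% and 10.4%. With each library left out in turn, the counts ranged from 1 to 5, 1 to 5, 2 to 3, 2 to 5 and 0 to 2. The 5 in each case was the count without D1 replicate 2, and the 1 was that without D1+ TGF-β replicate 1 or 2 at day 1 and without D20 replicate 1 or 2 at day 20. Of the partner genes, 5, 7, 13, 18 and 9 passed the filter, in the order in which the lists were described. The lanes gave 36 calls of partner genes for TGF-β at day 1, 37 and 46 for time with and without TGF-β and 30 for the difference. No gene filter gave 27 for time with TGF-β, and leaving out both libraries gave 29 at day 1, 30 for time with TGF-β and 26 for the difference. Single libraries left out gave 12 to 21 at day 1 and 11 to 25 for time with TGF-β. The share of all genes is given only with all 12 libraries and without both that stood apart. In the other settings, a shift of these counts cannot be told apart from a shift over all genes. Replicate numbers as a block gave 3, 3, 3, 2 and 0 of the 10 genes and turned the sign of COL7A1 for time without TGF-β (0.061). That value was 0.094 with limma-voom, 0.065 with lanes, 0.099 on the deposited log2 values and 0.468 without both libraries (single libraries −0.254 to 0.468). Other values near 0 changed sign. COL6A1 without both libraries was 0.018 at day 20 (single −0.214 to 0.0016) and 0.0060 for the difference. COL6A2 for time with TGF-β was −0.0037 with limma-voom, −0.039 with no filter and −0.040 with filterByExpr (single −0.049 to 0.096), its difference was 0.0026 without a composition factor and 0.087 without both libraries, and at day 20 single libraries gave −0.021 to 0.123. COL12A1 at day 1 was −0.0044 without a composition factor (single −0.012 to 0.135). The difference of COL4A5 was −0.0040 with limma-voom and −0.0097 on the deposited values (single −0.137 to 0.414). Single libraries also moved time without TGF-β from −0.079 to 0.775 for COL4A1 and from −0.018 to 0.179 for COL18A1, and the difference from −0.274 to 0.012 for COL6A3 and from −0.057 to 0.374 for COL8A1. The cause was not tested. Lengths of the longest transcript moved 14 of the 15 levels and ratios per length by more than the spread between flasks. Day 20 flasks descend from 1 flask per treatment.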

Other observations

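COL10A1, the network-forming collagen known from cartilage that turns to bone, did not pass the filter and entered no comparison, and it was singled out after its values were seen. It was at 1.63, 1.73 and 2.72 cpm in the D1 flasks, 7.56, 8.90 and 5.33 cpm after 1 day of TGF-β, 1.94, 0.911 and 1.10 cpm in the D20 flasks and 41.5, 45.3 and 51.1 cpm after 20 days of TGF-β. Every treated flask was above every untreated flask, and the 3 D20+ TGF-β flasks were the only libraries at or above 10 cpm. COL14A1, a relative of COL12A1 on fibril surfaces, was at 8.59, 4.85 and 4.26 cpm in the D1 flasks, 2.84, 3.29 and 2.37 cpm after 1 day of TGF-β, 21.7, 29.9 and 26.0 cpm in the D20 flasks and 18.3, 17.9 and 13.4 cpm after 20 days of TGF-β. It passed the filter through the 6 flasks of day 20 alone, so that no test of its change with time is given.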
